A study of Danio rerio with 8 samples.

Results

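The zebrafish genes of the fibroblast growth factor (FGF) receptor family were followed in cells sorted from larval hearts: fgfr1a, fgfr1b, fgfr2, fgfr3 and fgfr4, which encode receptors with a tyrosine kinase, and fgfrl1a and fgfrl1b, which encode FGF receptor-like proteins. They were chosen by name, and all 7 were present among the 21286 genes of the table. The study asked which signals pass between the epicardium, the outer cell layer of the heart, and the cardiac muscle beneath it. RNA was sequenced from 8 libraries, 2 for each of 4 groups, all from hearts dissected at 96 h post fertilization (hpf) and pooled before sorting. Each library was a separate sorted sample, and p-values measure only the spread between such pairs. The cells were collected over several sorting sessions, which the labels do not assign to libraries.

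The 4 groups were epicardial cells (EpiCs) and cardiomyocytes (CMs) from tcf21-/- and from tcf21+/+ larvae. All larvae carried the reporters TgBAC(tcf21:NLS-EGFP) and Tg(myl7:mCherry-CAAX), driven by an epicardial and by a myocardial promoter. EpiCs were the EGFP-positive cells, including cells positive for both reporters, and CMs were mCherry-positive and EGFP-negative. The tcf21 allele was a frameshift deletion in a transcription factor gene of the epicardium. The mutants came from heterozygous parents, were recognised by their missing head muscles and were kept only if much of the ventricle was covered by epicardium, whereas tcf21+/+ larvae had tcf21+/+ parents, siblings of the carriers. An effect of the genotype and one of the parents cannot be told apart. tcf21 RNA itself does not check the genotype in EpiCs, since the allele deletes only bases within the coding sequence: its values were 1636 and 1454 in tcf21-/- EpiCs, against 1600 and 1851 in tcf21+/+ EpiCs.

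FGF receptors are single-pass membrane proteins. A secreted FGF, together with heparan sulfate chains of the cell surface, joins a pair of receptors, whose kinases phosphorylate each other and pass the signal through the adaptor Frs2 to RAS, MEK and ERK. ERK activates ETS factors, and the genes switched on include inhibitors of the pathway from the Sprouty and Dusp families. The receptor-like proteins bind FGFs but lack the kinase domain. In vertebrate hearts, FGFs exchanged between the epicardium, endocardium and myocardium are known for their role in the growth of the ventricle.

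Values are read counts per gene that the authors scaled for library size and rounded. From a fit to how often each low value occurred, 1 read was worth 0.776 to 1.57 units, which puts the libraries at 6450000 to 11400000 counted reads. The scale holds no transcript length, so each gene is compared with itself across libraries and levels of different genes are not ranked. The epicardial and myocardial markers followed the labels. The 7 epicardial markers summed to 21100 to 23932 in the EpiC libraries, against 61 to 335 in the CM libraries, where wt1a and postnb were at 0 in both CM tcf21+/+ libraries. The 8 cardiomyocyte markers summed to 8482 to 13424 in the EpiC libraries, against 86821 to 93442 in the CM libraries, mostly from ttn.1, ttn.2, myh6 and myh7. All 8 were lower in EpiCs in both genotypes, some by much less than the sum. tnnt2a had 1355 and 1470 in tcf21+/+ EpiCs, against 3569 and 2415 in tcf21+/+ CMs. Of the lists for other tissues, the 4 liver markers in the table summed to 1279 to 1777 in EpiCs, almost all from tfa, against 5 to 166 in CMs. The 5 cartilage markers summed to 3707 to 4539 in EpiCs, almost all from acana and sox9a, against 9 to 62 in CMs. The smooth muscle markers summed to 9929 to 11848 in EpiCs, mostly from myh11a, against 2419 to 4634 in CMs. Of these 4 genes, 3 were higher in EpiCs of tcf21+/+ larvae. acta2 was lower, with 2413 and 2820 in tcf21+/+ EpiCs, against 3685 and 2831 in tcf21+/+ CMs. In tcf21-/- larvae all 4 were higher in EpiCs. The epidermis markers summed to 4601 to 5608 in EpiCs, against 1085 to 1821 in CMs. The endocardium and endothelium markers summed to 2570 to 3607 in EpiCs, mostly from kdrl and fli1a, against 476 to 1129 in CMs. Within that list, only kdrl and fli1a ran this way in tcf21+/+ larvae, and the other 5 of the 7 genes were lower in EpiCs. In tcf21-/- larvae 3 genes were higher in EpiCs and 4 lower. cdh5 was lower in EpiCs of both genotypes, with 1 and 12 in tcf21+/+ EpiCs, against 291 and 651 in tcf21+/+ CMs. The leukocyte markers summed to 7 to 43 in EpiCs, against 450 to 2226 in CMs, and the skeletal muscle markers to 2808 to 4424, against 5895 to 9600. Of the 7 skeletal muscle genes tested in tcf21+/+ larvae, 5 were higher in EpiCs and 2 lower, ckma and ckmb. mylpfa had 967 and 816 in tcf21+/+ EpiCs, against 282 and 330 in tcf21+/+ CMs. tnnt3a had 168 and 208 in tcf21+/+ EpiCs, against 0 and 0 in tcf21+/+ CMs. Differences are given as log2FC, the difference of mean log2(value + 1). A gene was called when its adjusted p was under 0.05 over the 16077 genes tested and its log2FC was at least 0.59 in size. Since the 4 comparisons draw on the same libraries, they are not independent of each other.

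Of the 7 genes, 6 were called higher in EpiCs of tcf21+/+ larvae than in their CMs and none lower, in a comparison in which 22.9% of all genes tested were called higher. Both EpiC libraries lay above both CM libraries for these 6 genes, as for 37.7% of all genes tested. All 5 kinase receptor genes were among them, together with fgfrl1b. The median log2FC of the 7 genes was 3.68, against 0.11 over all genes tested. For fgfrl1a, the values of both cell types overlapped. In such bulk samples fewer cells of a type and less RNA per cell cannot be told apart.

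fgfr1a lies on chromosome 8 (51430597 to 51524453, minus strand, danRer11) and encodes one of the zebrafish copies of the receptor FGFR1. It had values of 793 and 561 in tcf21+/+ EpiCs, against 113 and 119 in tcf21+/+ CMs. Both EpiC libraries lay above both CM libraries, with a log2FC of 2.51 (SE 0.35, adjusted p = 0.000575), the smallest of the 6 called genes. Its copy fgfr1b (chromosome 10, 42589391 to 42661445, plus strand) had 350 and 295 in tcf21+/+ EpiCs, against 3 and 3 in tcf21+/+ CMs. The CM values of fgfr1b stood for only 2 and 3 estimated reads. Its log2FC was 6.33 (SE 0.59, adjusted p = 7.52e-05), and the ratio of mean values was 107.5 (exact Poisson 95% interval 46.1 to 331.1, counting error only).

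fgfr2, which encodes a receptor known in mammals for its part in epithelial and mesenchymal exchange, lies on chromosome 13 (46298560 to 46429433, minus strand). Its values were 2913 and 2401 in tcf21+/+ EpiCs, against 239 and 246 in tcf21+/+ CMs, with a log2FC of 3.44 (SE 0.23, adjusted p = 1.94e-05). The CM libraries of fgfr2 were nearly equal, and both were far below either EpiC library. On the same chromosome, fgfr3 (13213567 to 13294872, minus strand), whose mammalian counterpart restrains the growth of long bones, had 3290 and 2902 in tcf21+/+ EpiCs, against 79 and 119 in tcf21+/+ CMs. Its log2FC was 4.98 (SE 0.26, adjusted p = 1.09e-05), larger than those of fgfr1a, fgfr2 and fgfr4, although the differences between genes were not tested.

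fgfr4 lies on chromosome 21 (37183124 to 37194839, minus strand) and encodes the receptor that in mammals serves the hormone-like FGF of bile acid control in the liver. It had 6714 and 6325 in tcf21+/+ EpiCs, against 478 and 542 in tcf21+/+ CMs. The replicates of each group lay close together, and the log2FC was 3.68 (SE 0.26, adjusted p = 2.46e-05). As a share of the mean of tcf21+/+ EpiCs, the tcf21+/+ CM libraries held 7.33% and 8.31% of the fgfr4 value. The 7 epicardial markers ranged from 0% to 4.64% in the first of these libraries and from 0% to 2.66% in the second, so fgfr4 stood above every one of them in both. In the tcf21-/- CM libraries fgfr4 stood at 1.57% and 2.88% of the tcf21-/- EpiC mean, where the highest epicardial marker of each library stood at 2.68% and 2.83%. The liver markers fabp10a and cp reached at most 17 and 19 in any library, and the cartilage marker matn1 at most 7. Other genes of these lists were not low. tfa had 1625 and 1763 in tcf21+/+ EpiCs, against 14 and 80 in tcf21+/+ CMs. acana had 2766 and 2467, against 0 and 6, and sox9a 1133 and 1301, against 9 and 19. apoa2 ran the other way, at 0 and 0, against 0 and 83. The part of liver, cartilage, smooth muscle, skeletal muscle, epidermal and endothelial RNA in the receptor differences was not tested.

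The receptor-like genes were unlike each other. fgfrl1a (chromosome 14, 17442913 to 17563773, minus strand) had 2826 and 2931 in tcf21+/+ EpiCs, against 2924 and 2702 in tcf21+/+ CMs. The log2FC was 0.03, with a 95% interval of -0.28 to 0.35 (adjusted p = 0.863). The gene overlaps CU302200.1 on the plus strand. fgfrl1b (chromosome 14, 41600340 to 41678749, minus strand) had 1537 and 1578 in tcf21+/+ EpiCs, against 9 and 1 in tcf21+/+ CMs. These CM values stood for 6 and 1 estimated reads. The log2FC was 8.44 (SE 0.82, adjusted p = 9.29e-05), the largest of the 7, and the ratio of mean values was 311.5 (151.2 to 774.8, counting error only).

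**Figure D1:**
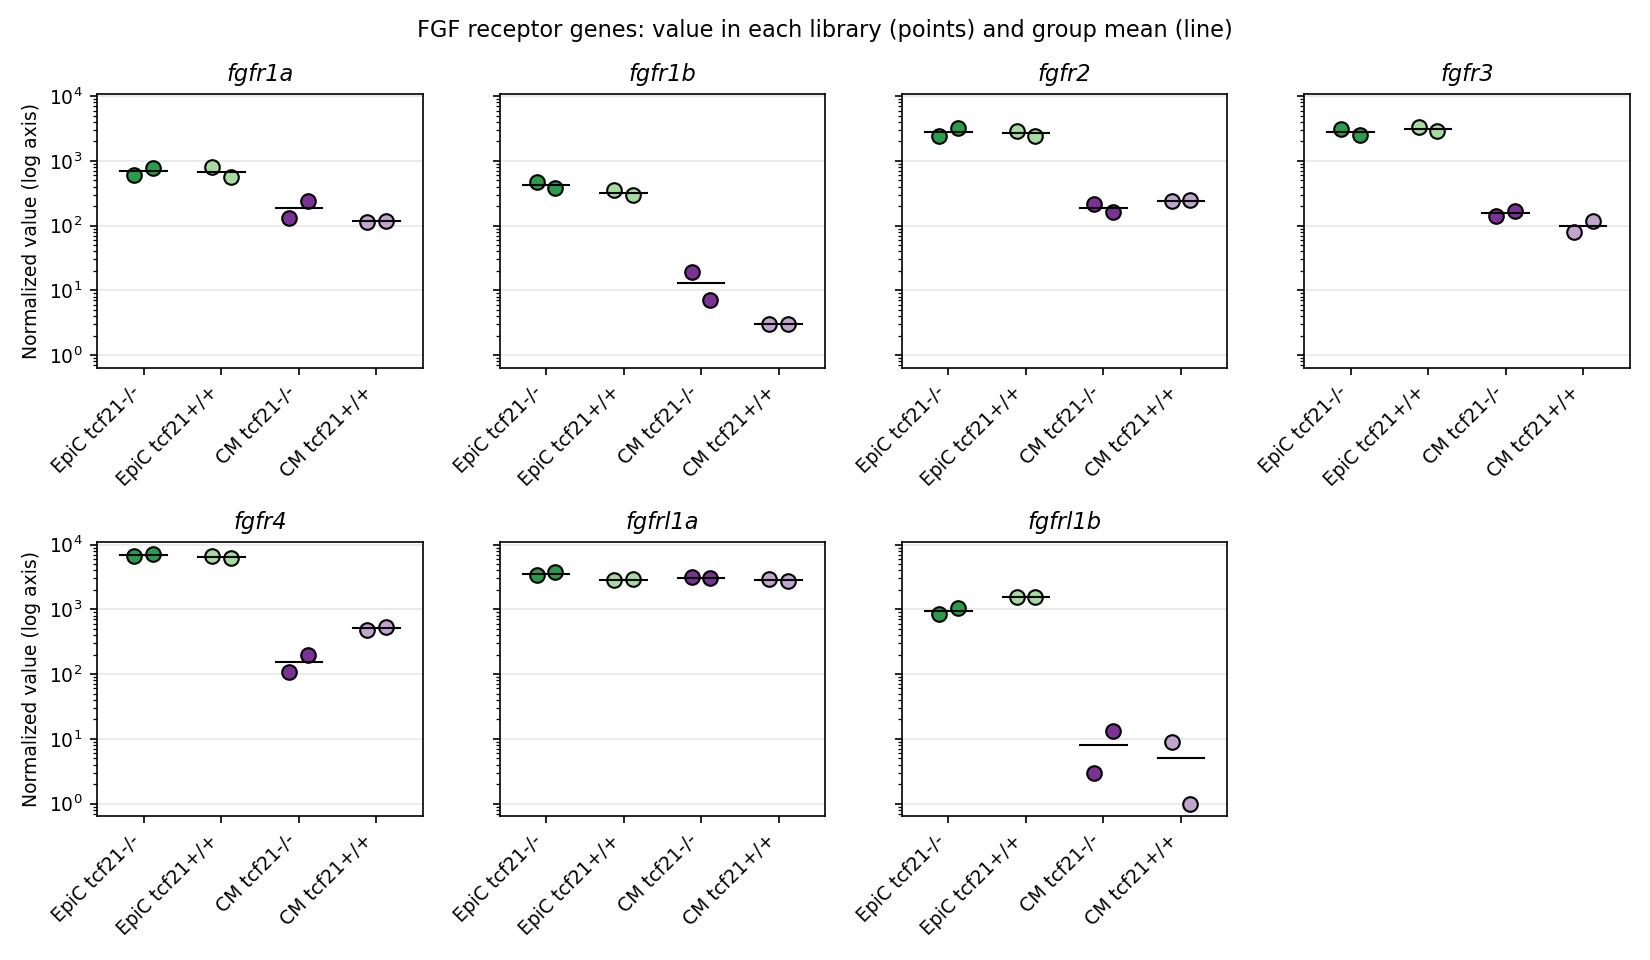
Normalized value of each FGF receptor gene (log axis) in the 2 libraries of EpiC tcf21-/-, EpiC tcf21+/+, CM tcf21-/- and CM tcf21+/+ (points), with the group mean as a line. EpiCs lie above CMs for 6 of the 7 genes, fgfrl1a lies between 2702 and 3764 in every library, and fgfr4 in CM tcf21-/- lies at 107 and 197, below the 478 and 542 of CM tcf21+/+.

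The same comparison in the mutant called the same 6 of 7 genes by name, fgfr1a, fgfr1b, fgfr2, fgfr3, fgfr4 and fgfrl1b, where 21% of all genes tested were called higher in EpiCs. Here both EpiC libraries lay above both CM libraries for all 7 genes, fgfrl1a included, as for 39.7% of all genes tested. The median log2FC of the 7 genes was 4.19, against 0.09 over all genes. fgfr1a had 601 and 778 in tcf21-/- EpiCs, against 131 and 240 in tcf21-/- CMs, with a log2FC of 1.94 (SE 0.35, adjusted p = 0.00246). fgfr2 had 2427 and 3221 in tcf21-/- EpiCs, against 214 and 164 in tcf21-/- CMs (log2FC 3.89, SE 0.23). For both genes, all EpiC libraries of either genotype lay above all CM libraries.

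fgfr3 had 3147 and 2530 in tcf21-/- EpiCs, against 139 and 171 in tcf21-/- CMs, with a log2FC of 4.19 (SE 0.26, adjusted p = 1.48e-05). fgfr4 had 6607 and 7053 in tcf21-/- EpiCs, against 107 and 197 in tcf21-/- CMs, with a log2FC of 5.54 (SE 0.26, adjusted p = 7.87e-06). All 4 EpiC libraries lay above all 4 CM libraries for both genes. The thinly read genes kept their direction: fgfr1b had 474 and 383 in tcf21-/- EpiCs, against 19 and 7 in tcf21-/- CMs, and fgfrl1b had 861 and 1035 against 3 and 13. Their ratios of mean values were 33.0 (22.2 to 51.4) for fgfr1b and 118.5 (73.0 to 207.3) for fgfrl1b. For fgfrl1a, with 3343 and 3764 in tcf21-/- EpiCs against 3187 and 3021 in tcf21-/- CMs, the log2FC was 0.19 (95% interval -0.12 to 0.50, adjusted p = 0.298).

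The make-up of the receptor signal within a library does not depend on the scaling factor of that library, although it is not per length. fgfrl1a made up 19.2% and 20.1% of the summed value of the 7 genes in EpiCs of the mutant, against 15.3% and 17.3% in tcf21+/+ EpiCs. In CMs the same gene made up 83.9% and 79.2% of the sum in tcf21-/- libraries, and 76.1% and 72.4% in tcf21+/+ libraries. fgfr4 took 37.8% and 37.6% in tcf21-/- EpiCs, against 36.4% and 37.2% in tcf21+/+ EpiCs. In CMs it took 2.82% and 5.17% in tcf21-/- libraries, and 12.4% and 14.5% in tcf21+/+ libraries. The 5 kinase receptor genes together summed to 13256 and 13965 in tcf21-/- EpiCs, against 14060 and 12484 in tcf21+/+ EpiCs. In CMs they summed to 610 and 779 in tcf21-/- libraries and to 912 and 1029 in tcf21+/+ libraries.

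**Figure D2:**
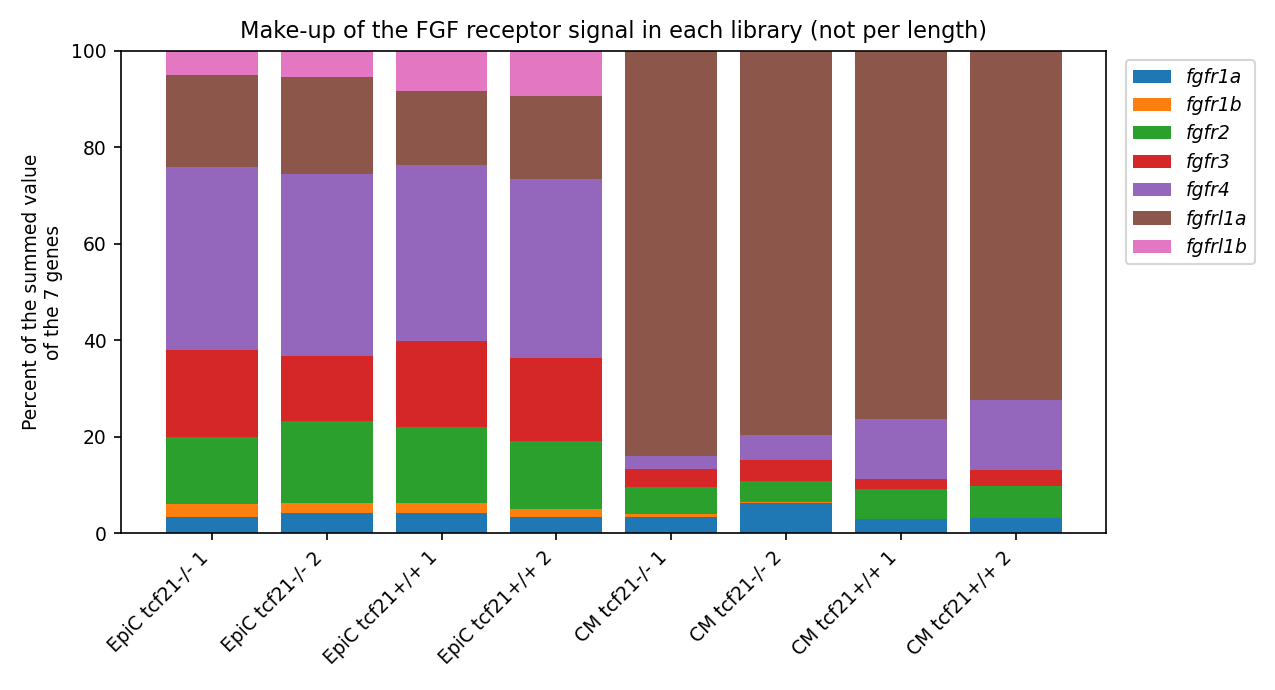
Share of each gene in the summed normalized value of the 7 FGF receptor genes, in percent, for each of the 8 libraries, not corrected for transcript length. fgfrl1a takes 15.3% to 20.1% of the sum in EpiC libraries and 72.4% to 83.9% in CM libraries, where fgfr4 takes 2.82% and 5.17% in CM tcf21-/- against 12.4% and 14.5% in CM tcf21+/+.

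Between tcf21-/- and tcf21+/+ CMs, fgfr4 was lower in the mutant and was the 1 gene of the 7 that was called, in a comparison where 0.367% of all genes tested were called in either direction and 0.118% were called lower. The paper, which used DESeq2, also describes fgfr4 as lower in tcf21-/- CMs. It calls the gene highly expressed in CMs, whereas here its values were higher in EpiCs of both genotypes. The fgfr4 values were 107 and 197 in tcf21-/- CMs, against 478 and 542 in tcf21+/+ CMs. They stood for 94 and 202 estimated reads against 304 and 511. The groups did not overlap, with both mutant libraries below both wild-type ones as in 19.3% of all genes tested, although the mutant libraries differed from each other more than the wild-type libraries did. In the fit all 8 libraries share 1 estimate of the spread of fgfr4, including the EpiC libraries. In relative terms the EpiC pairs lay closer together than the mutant CM pair, at 6607 and 7053 in tcf21-/- and 6714 and 6325 in tcf21+/+. The SE and interval given here may therefore understate the spread between CM libraries. The log2FC was -1.80 (SE 0.26, 95% interval -2.40 to -1.20, adjusted p = 0.0422), a 3.49-fold lower value in the mutant. This adjusted p lay close to the threshold, and the call was lost under 5 of 11 other settings, with an adjusted p of up to 0.66 when only the CM libraries were fitted, and in 6 of 8 fits that left out 1 library, while the log2FC stayed between -2.24 and -1.36 throughout. The call was lost without CM tcf21-/- replicate 1 (adjusted p = 0.0714), without CM tcf21+/+ replicate 1 (adjusted p = 0.0711) and without any 1 of the 4 EpiC libraries (adjusted p = 0.153 to 0.174).

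Ratios between receptor genes of 1 library, which 1 scaling factor per library cannot move, showed the same order. The 3 ratios below all hold the same fgfr4 values, so they are no separate result. fgfr3 itself was higher in tcf21-/- CMs (log2FC 0.66), which widens its ratio, and fgfr2 was lower (log2FC -0.37), which narrows its ratio. For each unit of fgfr2, tcf21-/- CMs had 0.5 and 1.2 units of fgfr4, against 2.0 and 2.2 units in tcf21+/+ CMs. For each unit of fgfr3 they had 0.77 and 1.15 units, against 6.05 and 4.55 units in tcf21+/+ CMs. Relative to fgfrl1a, fgfr4 stood at 3.36% and 6.52% in tcf21-/- CMs, against 16.4% and 20.1% in tcf21+/+ CMs. All 3 ratios separated the genotypes in CMs, while in EpiCs fgfr4 per unit of fgfr2 was 2.72 and 2.19 in tcf21-/- libraries, against 2.3 and 2.63 in tcf21+/+ libraries, with overlap. fgfr4 per unit of fgfr3 also overlapped in EpiCs, at 2.1 and 2.79 in tcf21-/- libraries, against 2.04 and 2.18 in tcf21+/+ libraries. The ratio of fgfr4 to fgfrl1a was lower without overlap in EpiCs too, at 197.64% and 187.38% in tcf21-/- libraries, against 237.58% and 215.8% in tcf21+/+ libraries. There fgfr4 itself was not lower (log2FC 0.07, with overlap), and fgfrl1a was higher in the mutant (log2FC 0.30), which lowers the ratio. Between CM genotypes the log2FC of fgfrl1a was 0.14.

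The other members were not called between the CM genotypes, and 3 of the 7 genes, fgfr1b, fgfr3 and fgfr4, had an unadjusted p under 0.05, as had 12.2% of all genes tested. fgfr3 had 139 and 171 in tcf21-/- CMs, against 79 and 119 in tcf21+/+ CMs, with a log2FC of 0.66 (95% interval 0.08 to 1.25, adjusted p = 0.368). fgfr1b had 19 and 7 in tcf21-/- CMs, against 3 and 3 in tcf21+/+ CMs, a log2FC of 1.66 on very few reads (adjusted p = 0.343). Both mutant libraries were above both wild-type libraries for 4 of the 7 genes, fgfr1a, fgfr1b, fgfr3 and fgfrl1a, as in 20.6% of all genes tested, and below them for 2, fgfr2 and fgfr4. For fgfr1a, with 131 and 240 in tcf21-/- CMs against 113 and 119 in tcf21+/+ CMs, the log2FC was 0.61 (-0.19 to 1.40, adjusted p = 0.49). For fgfr2, with 214 and 164 against 239 and 246, it was -0.37 (-0.89 to 0.15, adjusted p = 0.505). fgfrl1a had a log2FC of 0.14 (-0.17 to 0.45), and fgfrl1b, with 3 and 13 in tcf21-/- CMs against 9 and 1 in tcf21+/+ CMs, was too thinly read for a direction.

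Summed markers of other cells also set the CM libraries apart, in part by genotype. The 5 leukocyte markers summed to 1547 and 2226 in tcf21-/- CMs, against 450 and 572 in tcf21+/+ CMs, and their part in the fgfr4 difference was not tested. The leukocyte markers were low in EpiCs, at 43 and 41 in tcf21-/- libraries, against 17 and 7 in tcf21+/+ libraries. The 7 epicardial markers summed to 61 and 335 in tcf21-/- CMs, against 253 and 272 in tcf21+/+ CMs, with overlap. col1a2 made up most of the sum of 335. Within the list, 4 genes were lower and 3 higher in the mutant CMs, and none was called. tcf21 was lower without overlap, at 5 and 12 in tcf21-/- libraries, against 80 and 28 in tcf21+/+ libraries (log2FC -2.46, adjusted p = 0.137). wt1b had 29 and 14, against 44 and 29 (log2FC -0.79, adjusted p = 0.465). The 3 higher by log2FC were wt1a, with 0 and 8 against 0 and 0, postnb, with 0 and 22 against 0 and 0, and aldh1a2, with 22 and 19 against 71 and 0. The part of epicardial RNA in the fgfr4 difference was not tested. The 9 skeletal muscle markers summed to 6819 and 5895 in tcf21-/- CMs, against 9600 and 6636 in tcf21+/+ CMs, with overlap. Most of this sum came from the creatine kinase genes ckma and ckmb, which the heart may also express, and myf5 and tnnt3a were at 0 in all CM libraries. The fast muscle myosin light chain gene mylpfa was lower without overlap, at 122 and 96 in tcf21-/- CMs, against 282 and 330 in tcf21+/+ CMs (log2FC -1.49, adjusted p = 0.0854). The 4 smooth muscle markers, mostly acta2, summed to 2836 and 2419 in tcf21-/- CMs, against 4634 and 3533 in tcf21+/+ CMs. The part of the muscle markers in the fgfr4 difference was not tested.

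**Figure D3:**
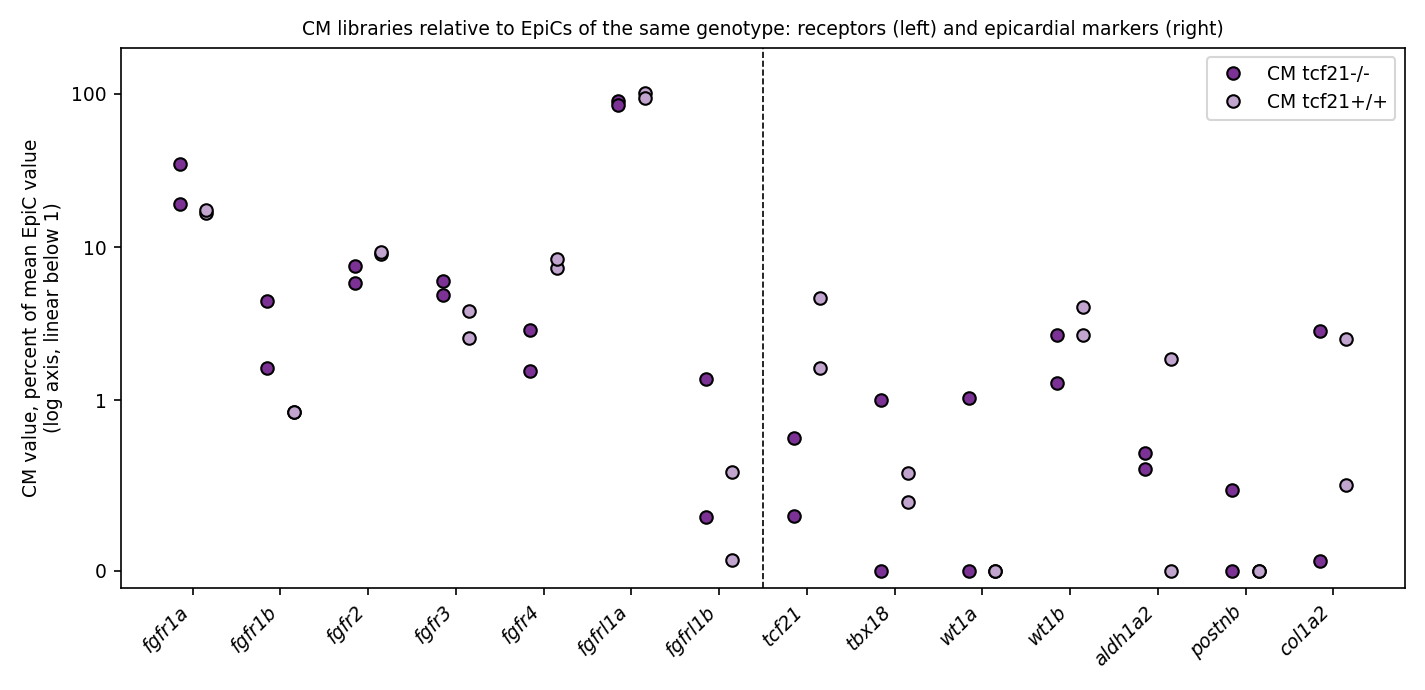
Value in each CM library as a percent of the mean EpiC value of the same genotype (log axis, linear below 1), for the 7 receptor genes on the left and the 7 epicardial markers on the right. fgfr4 stands at 1.57% and 2.88% in CM tcf21-/-, where the highest epicardial marker of each library stands at 2.68% and 2.83%, and at 7.33% and 8.31% in CM tcf21+/+, where it stands at 4.64% and 2.66%.

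None of the 7 genes was called between tcf21-/- and tcf21+/+ EpiCs by limma, against 0.193% of all genes tested, and 0 of the 7 had an unadjusted p under 0.05, against 8.46% of all genes. fgfr4, with 6607 and 7053 in tcf21-/- EpiCs against 6714 and 6325 in tcf21+/+ EpiCs, had a log2FC of 0.07 (95% interval -0.53 to 0.66). The intervals of fgfr2 (log2FC 0.08, -0.44 to 0.60) and fgfr3 (-0.13, -0.72 to 0.45) were of like width. fgfr1a had a log2FC of 0.04 (-0.76 to 0.83). fgfr1b had 474 and 383 in tcf21-/- EpiCs, against 350 and 295 in tcf21+/+ EpiCs, without overlap, and a log2FC of 0.41 (-0.94 to 1.76).

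Like fgfr1b, both receptor-like genes separated by library in EpiCs, without passing the test. fgfrl1a had 3343 and 3764 in tcf21-/- EpiCs, against 2826 and 2931 in tcf21+/+ EpiCs, a log2FC of 0.30 (-0.01 to 0.61, adjusted p = 0.602). fgfrl1b had 861 and 1035 in tcf21-/- EpiCs, against 1537 and 1578 in tcf21+/+ EpiCs, a log2FC of -0.72 (-2.60 to 1.16, adjusted p = 0.912). In this fit all 8 libraries share 1 estimate of the spread of fgfrl1b, including its few reads in CMs. With the EpiC libraries alone its SE was 0.14, against 0.82, and the adjusted p was 0.215 (unadjusted 0.00379). Among all genes tested, both mutant EpiC libraries lay above both wild-type libraries in 21.6% and below them in 21.5%.

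Whether the genotype difference itself differed between EpiCs and CMs was tested as an interaction. For fgfr4 the log2FC between genotypes in EpiCs exceeded that in CMs by 1.87 on the log2 scale (SE 0.37, 95% interval 1.02 to 2.71, unadjusted p = 0.000811), and after adjustment over all genes it was not called (adjusted p = 0.212). It was the 1 gene of the 7 with an unadjusted p under 0.05, against 7.07% of all genes tested, and limma called 0 of the 16077 genes. For fgfr3 the interaction ran the other way, at -0.79 (-1.62 to 0.03, adjusted p = 0.73).

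**Figure D4:**
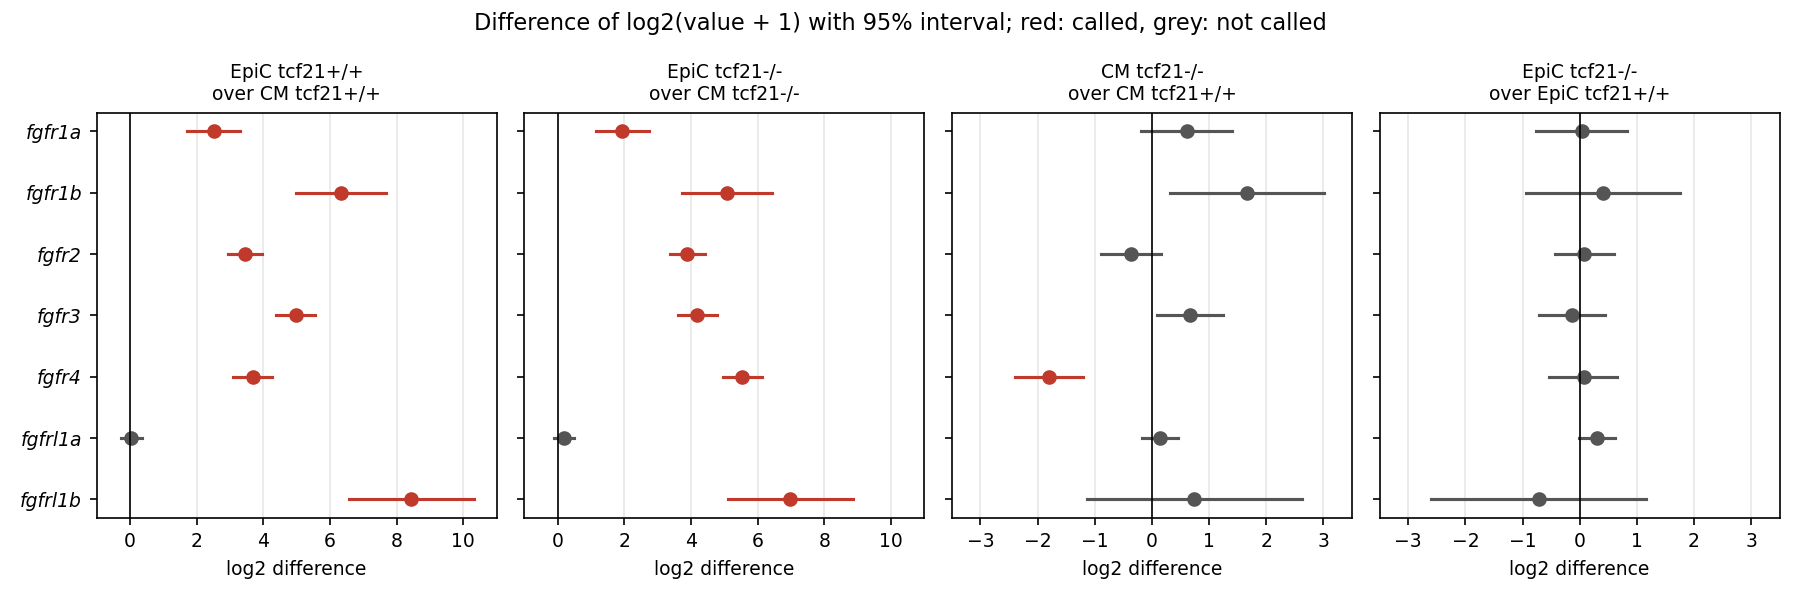
Difference of mean log2(value + 1) with its 95% interval for the 7 FGF receptor genes in 4 comparisons (the named first group over the second), red where called and grey where not. The 6 genes other than fgfrl1a are called in both comparisons of EpiCs with CMs, fgfr4 at -1.80 is the 1 called between CM genotypes, and none is called between EpiC genotypes.

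The genes around the receptors were grouped by role. For wild-type EpiCs against wild-type CMs, the background of each list was the 22.9% of all genes tested that passed as higher. The median log2FC of all genes was 0.11. The share of all genes that passed as lower is not given, so the counts of lower genes below stand without a background. Of 18 FGF ligand genes in the table, 13 were tested, and EpiCs of tcf21+/+ larvae had 4 called higher and 7 called lower than their CMs. The median log2FC was -4.33 (-4.18 with genes at 0 in a group set to their bound). In tcf21-/- larvae the median of the same 13 genes was -0.43, the value of a middle gene that was not called. There 2 were called higher in EpiCs, against 21% of all genes tested, and 6 lower. These 6 were all among the 7 called lower in tcf21+/+ larvae, with a log2FC from -7.76 (fgf17) to -3.60. The remaining gene of those 7, fgf8b, was at 0 in every tcf21-/- library. fgf17, a ligand of the Fgf8 subfamily, had 11 and 0 in tcf21+/+ EpiCs, against 2098 and 1542 in tcf21+/+ CMs. fgf8a, a ligand needed early in zebrafish heart formation, had 0 and 3 in tcf21+/+ EpiCs, against 98 and 71 in tcf21+/+ CMs. fgf4 was at 0 in both tcf21+/+ EpiC libraries, against 39 and 52 in CMs, and so was at least 18.1-fold lower. fgf10b, whose mammalian counterpart acts on FGFR2, was at least 11.1-fold higher, with 36 and 52 in EpiCs and 0 in both CM libraries of tcf21+/+ larvae. These bounds take 3 reads per library for the group at 0.

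Among heparan sulfate and co-receptor genes, 26 of 27 in the table were tested, and the wild-type EpiCs had 14 called higher and 2 lower relative to wild-type CMs, at a median log2FC of 1.27. anos1a, which encodes a secreted modulator of FGF receptors, had 636 and 901 in wild-type EpiCs and 0 in both wild-type CM libraries, at least 195-fold higher. flrt3, which encodes a membrane protein that binds FGF receptors, had 2166 and 1970 in tcf21+/+ EpiCs, against 0 and 23 in tcf21+/+ CMs. Its log2FC of 8.72 (SE 1.26) depends on the pseudocount, with 1 CM library at 0. ndst1a, a heparan sulfate sulfotransferase gene, ran the other way, at 0 in both EpiC libraries, against 90 and 131 in CMs, at least 44-fold lower.

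Of the adaptor and RAS-ERK genes, 26 of 27 were tested, with 7 called higher, 2 lower and a median log2FC of 0.17. Among those called higher were map2k1 (MEK1) at a log2FC of 2.55, frs2a, the adaptor docked on FGF receptors, at 1.76, and grb2a, which links Frs2 to RAS activation, at 1.57. Of 14 feedback and ETS target genes, 2 were called higher and 5 lower, with a median of -0.53. dusp6, an ERK phosphatase induced by FGF signalling, was lower, with 1427 and 1221 in tcf21+/+ EpiCs against 4720 and 4170 in tcf21+/+ CMs (log2FC -1.75, SE 0.24, adjusted p = 0.000542). The phosphatase gene dusp5 was higher in EpiCs, at a log2FC of 1.34, and dusp4 was lower, at -0.93. The ETS factor gene etv1 was also called lower, with 1 and 0 in tcf21+/+ EpiCs against 13 and 13 in tcf21+/+ CMs.

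Other receptor tyrosine kinase genes give a scale for the members. Of 34 tested, 15 were called higher and 2 lower in EpiCs relative to CMs of tcf21+/+ larvae, at a median log2FC of 1.22 (1.21 with bounds), against 3.68 for the 7 FGF receptor genes. pdgfrb, the receptor of PDGF-B, had 1505 and 960 in wild-type EpiCs and 0 in both wild-type CM libraries, at least 312-fold higher. ddr2a, a collagen receptor gene, had 797 and 1166 in tcf21+/+ EpiCs, against 0 and 18 in tcf21+/+ CMs. Its log2FC of 7.79 (SE 1.73) depends on the pseudocount, with 1 CM library at 0. kdrl, a VEGF receptor gene, had a log2FC of 6.63.

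Between tcf21-/- and tcf21+/+ CMs, 1 gene of these lists was called, the ligand gene fgf8b. It was at 0 in both tcf21-/- CM libraries, against 41 and 46 in tcf21+/+ CMs, at least 13.7-fold lower (adjusted p = 0.0491). This call was lost when the EpiC libraries were left out of the fit and when libraries were weighted by quality, since no gene was called then. Its adjusted p lay close to the threshold, and fgf8b was not followed under the other settings. None of the 26 co-receptor, 26 adaptor, 14 feedback and 34 other kinase genes tested was called in that comparison, with list medians from -0.08 to 0.47 beside 0.61 for the members and 0 for all genes. Between tcf21-/- and tcf21+/+ EpiCs no gene of the 5 lists was called, in a fit that called 0.193% of all genes tested. Of the 13 ligand genes tested there, 4 were higher and 8 lower in the mutant. fgf24 had 238 and 209 in tcf21-/- EpiCs, against 620 and 865 in tcf21+/+ EpiCs (log2FC -1.71, limma adjusted p = 0.533). Both mutant libraries lay below both wild-type libraries, as for 21.5% of all genes tested. The paper, which used DESeq2, reports fgf24 as significantly lower in mutant EpiCs. It also measured fgf24 by RT-qPCR in dissected hearts, and describes its expression as lower in tcf21-/- hearts.

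**Figure D5:**
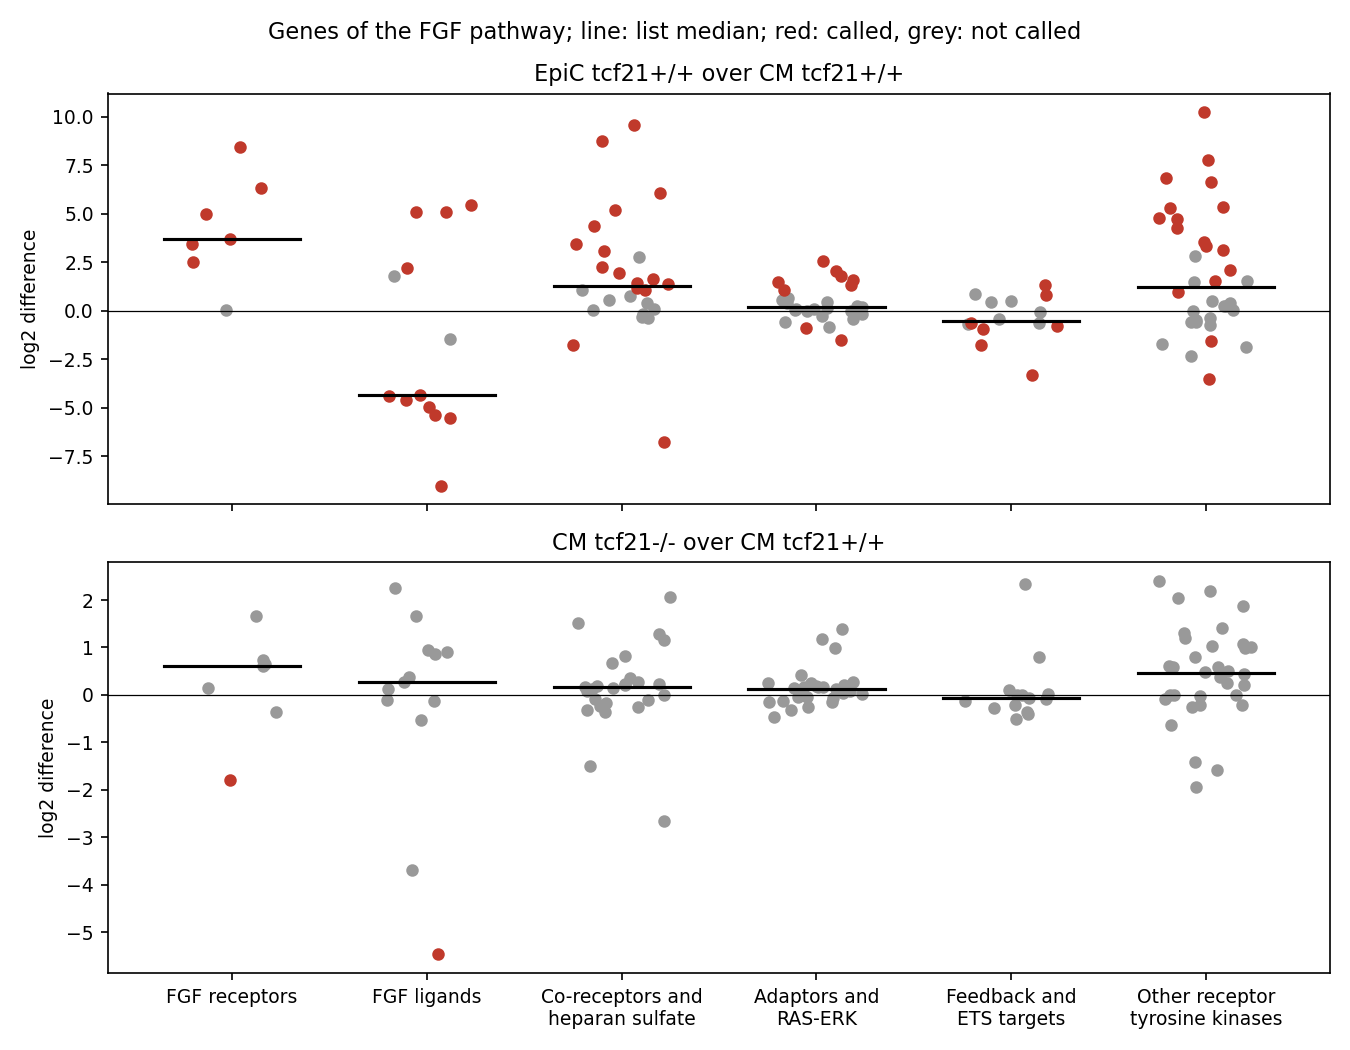
Difference of mean log2(value + 1) of each tested gene in 6 lists, EpiC tcf21+/+ over CM tcf21+/+ above and CM tcf21-/- over CM tcf21+/+ below, with the list median as a line and called genes in red. In the upper panel the medians are 3.68 for FGF receptors and -4.33 for FGF ligands. For EpiC tcf21-/- over CM tcf21-/-, not plotted, the ligand median was -0.43, with 6 of the 13 ligand genes tested called lower. In the lower panel the 2 red points are fgfr4 and fgf8b, the second with both mutant libraries at 0, so its plotted size depends on the pseudocount.

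Likeness of pattern was measured as Pearson's r of log2(value + 1) over the 8 libraries, against 12933 genes whose mean value reached 50. With 4 groups of 2 libraries, such an r mostly reads the gap between EpiCs and CMs. For fgfr4 the 3 most similar genes were ckap4 (r = 0.998), which encodes a membrane protein of the endoplasmic reticulum, inhbb (0.997), an activin subunit, and fkbp7 (0.997), a prolyl isomerase. ckap4 had 177 and 218 in tcf21-/- CMs, against 415 and 473 in tcf21+/+ CMs, while in EpiCs the mutant had 2157 and 2260, against 2007 and 2287 in the wild type. Since these genes were picked for likeness over the same libraries, a shared order between genotypes is no separate result. inhbb had 314 and 394 in tcf21-/- CMs, against 673 and 597 in tcf21+/+ CMs.

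The other members had different neighbours. fgfr1a was most like dzip1 (0.994), fgfr1b like plat, tent5bb and dpysl2b (0.997 each), fgfr2 like the sphingosine phosphate receptor gene s1pr1 (0.997), and fgfr3 like eya4 (0.998). fgfrl1b was most like pora, ets2 and si:ch1073-291c23.2 (0.996 each). fgfrl1a, the gene without a gap between the cell types, had lower values, with nisch at 0.947 and the Wnt effector gene lef1 at 0.938. Among the members themselves, fgfrl1a had an r of 0.282 to 0.5 with the other genes, which had 0.869 to 0.98 with each other.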

How the data were processed

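RNA of sorted larval EpiCs and CMs was amplified with a full-length, low-input kit that does not mark strand. Per the labels and the study's methods, the authors trimmed reads with Trimmomatic 0.39, aligned them with STAR 2.7.3a to danRer11 (Ensembl 99), counted reads in exons per gene with featureCounts 1.6.5, leaving out reads on multiple genes or sites, and used DESeq2 1.26.0. The deposited signal is counts divided by size factors and rounded to whole numbers. Raw counts could not be recovered wherever 1 read was worth less than 1 unit, so no count model was run. In place of it, limma 3.58.1 (R 4.3.3, abundance trend, two-sided) was fitted to log2(value + 1) of genes with a mean of at least 10, with all 8 libraries and the 4 groups as terms, and p-values were adjusted by Benjamini-Hochberg over 16077 genes. Reads per library were estimated by fitting the step worth 1 read to how often each low value occurred. This procedure recovered 9 of 9 simulated steps within 0.005. Poisson intervals cover counting error only, not the spread between libraries. The fit was tested on simulated data. Other pseudocounts, filters, scalings, weights, sample sets and a replicate block were tried. The authors' own fold changes were not used. The members and gene lists were chosen with earlier results of these data known. From each list the text names called genes, at most the 4 largest, and for each member up to 3 genes of like pattern. The uncalled ligand gene fgf24 is named because the paper reports it as lower in mutant EpiCs.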

Additional observations from a re-analysis of the deposited data

How the results depend on the processing

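Counts of called FGF receptor genes stayed at 6 in both comparisons of EpiCs with CMs, at 0 between EpiC genotypes and at 0 for the interaction, under every alternative run and without each library in turn. Between CM genotypes the count was 1 (fgfr4), and it was 0 with a minimum mean of 1 (adjusted p of fgfr4 0.0603), without the abundance trend (0.143), with library quality weights (0.155) and with only the compared groups (0.66). The log2FC of fgfr4 was -1.81 to -1.75 over these settings, with adjusted p from 0.0226 to 0.66. Without 1 library the count ranged from 0 to 2 and the log2FC of fgfr4 from -2.24 to -1.36. fgfr4 was called without CM tcf21-/- replicate 2 and without CM tcf21+/+ replicate 2, where fgfr3 was called too (0.96, adjusted p = 0.0464). It was not called without CM tcf21-/- replicate 1 (-1.36, 0.0714), without CM tcf21+/+ replicate 1 (-1.89, 0.0711) or without any EpiC library (0.153 to 0.174). The cause was not tested.

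Libraries with the same replicate number showed no shared deviation, with correlations of same-numbered deviations from -0.081 to 0.067. Such correlations cannot show whether these libraries came from the same hearts or sorting session. With the replicate block, 0 members were called between CM genotypes (fgfr4 -1.80, adjusted p = 0.0585) and all other counts of members were the same.

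Over all genes, the calls between CM genotypes numbered 59, against 22 with a minimum mean of 1, 85 without the trend, 0 with quality weights, 0 with only the compared groups, 1 with the block, 21 with a pseudocount of 8 and 1391 without CM tcf21+/+ replicate 2. Between EpiC genotypes they numbered 31, against 133 with quality weights, 96 with a pseudocount of 8, 9 with the block and 0 with only the compared groups. For the interaction they numbered 0, against 58 without the trend and 6 with a pseudocount of 8.

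Uncalled differences changed sign only when a library was left out. The log2FC of fgfrl1a between tcf21+/+ EpiCs and CMs ranged from -0.02 to 0.09, and that of fgfrl1b between CM genotypes from -0.42 to 1.90 (-0.16 without CM tcf21-/- replicate 2). Between EpiC genotypes, fgfr1a ranged from -0.21 to 0.29, fgfr2 from -0.12 to 0.28 and fgfr3 from -0.29 to 0.03. Cyclic loess scaling moved the median of all genes in tcf21+/+ EpiCs over CMs to 0.001, against 0.114, and the log2FC of fgfrl1a to 0.39 (adjusted p = 0.0196), still under the limit of 0.59. Depth limits fgfr1b and fgfrl1b in CMs, which rest on 1 to 17 reads per library.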

Other observations

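Besides the 7 members, the table held 2 rows named fgfr1bl, a gene whose name places it beside fgfr1b. One had 766 and 869 in mutant EpiCs and 677 and 625 in wild-type EpiCs, against 0 and 0 in tcf21-/- CMs and 3 and 15 in tcf21+/+ CMs. The other had 10 and 22 in mutant EpiCs, 7 and 24 in wild-type EpiCs, and 0 in all CM libraries. Since reads that aligned to several places were left out of the counts, near-identical stretches shared by such copies would be missing from the values of fgfr1b, and its level is uncertain to that extent. The first of these rows, like fgfr1b, was high in all EpiC libraries and near 0 in all CM libraries.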
